A study of Homo sapiens with 18 samples.

Results

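The genes of the proteasome were examined as the rows of a read-count table whose symbol was PSM, followed by 1 letter from A to G and a number. This rule found 48 of 28266 rows. Symbols with a further suffix, such as the antisense RNA PSMB8-AS1 or PSMC3IP, were left out. The table held 18 bulk poly(A) RNA-seq libraries of IMR90 ER:RAS cells, a line of human lung fibroblasts that carries a fusion of oncogenic RAS to the oestrogen receptor and is labelled WT. 4-Hydroxytamoxifen (4OHT) activates the fusion, so senescence in these cells is that induced by 1 oncogene in 1 line. All cells received 100 nM 4OHT or DMSO over 7 days, which makes them senescent or control cells. They then received 300 nM IMP1088, 1.5 µM DDD86481 or DMSO for 3 days and were collected at day 10. Both drugs inhibit N-myristoyltransferases, the enzymes that attach myristate to the N terminus of proteins. The 6 groups were control DMSO, control IMP1088, control DDD86481, senescent DMSO, senescent IMP1088 and senescent DDD86481, with 3 replicates each. The study describes its replicates as independent experiments.

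The proteasome degrades ubiquitylated proteins. Its 20S core is a barrel of α rings (PSMA genes) around β rings (PSMB genes), and the β subunits PSMB5, PSMB6 and PSMB7 carry the proteolytic sites. Interferon can replace these with PSMB8, PSMB9 and PSMB10, which gives the immunoproteasome, a form that favours peptides for major histocompatibility complex (MHC) class I. The 19S cap recognises and unfolds substrates. Its base holds the ATPases (PSMC), the scaffold subunits PSMD1 and PSMD2 and the ubiquitin receptor PSMD4. Its lid (most other PSMD genes) includes the deubiquitylase PSMD14. PSME genes encode other caps, PSMF1 an inhibitor, and PSMG genes, with PSMD5, PSMD9 and PSMD10, chaperones that help to build the particle. Cells with impaired proteasomes are known to raise these genes together through the transcription factor NRF1 (gene NFE2L1).

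Libraries held 16143716 to 23189950 counts, and 14341 genes with 99.9619% of all counts passed the filter on low counts. Levels are given as CPM, counts scaled to a common library size with TMM factors, and fold changes as log2 values ± SE from edgeR's quasi-likelihood test, called at a Benjamini-Hochberg adjusted p under 0.05 over all genes tested. Fibroblast markers summed to 15350 to 39414 CPM across libraries. Among the markers of other cell types, the T cell marker CD3E and the epithelial markers KRT5, SFTPB and SFTPC were at 0 in every library. Summed immune markers were 15.2 to 20.1 CPM in control DMSO cells and 119 to 150.1 in senescent DMSO cells, led by CD68. Summed endothelial markers were 1.65 to 2.30 and 35.4 to 44.3 CPM, led by TIE1, and epithelial markers 28.0 to 39.3 and 1.15 to 1.49 CPM. Their part in the results was not tested.

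One library stood apart in a way that bears on the proteasome genes. Control DMSO replicate 3 deviated from its group with transcript length (r = -0.584 across 13752 genes, which are not independent), such that short transcripts were high. Proteasome transcripts are short, with a median length of 1494 bases against 3279 over all genes, and 39 of the 46 tested stood above both other replicates in that library. Control DMSO replicate 1 deviated the other way (r = 0.528), with 35 of 46 below both. How many of all genes stood above or below both other replicates was not counted. Among senescent libraries, deviations followed GC content in DMSO replicates 2 and 3 (r = -0.258 and 0.342) and in DDD86481 replicates 1 and 2 (r = 0.249 and -0.280), and in DMSO replicate 3, 32 of the 46 genes stood above both other replicates. Senescent DDD86481 replicate 1 had the largest spread of deviations among them (SD 0.388 on the log2 scale), with PSMB7 low and PSMB5 high. Counts of called proteasome genes that rest on control DMSO are therefore given with and without replicate 3. Some are also given after removing the trend with length from each library. Values of single genes without replicate 3 are given for some genes only, and the others include that library. These choices were made after seeing the data.

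Of the 48 genes, 46 passed the filter. PSMA8, the α subunit of testis, had no count in any library, and PSMB11, the thymus-specific β subunit, had 7 counts in all. Per library, proteasome genes took 0.496, 0.539 and 0.673% of counts in control DMSO cells and 0.70, 0.711 and 0.756% in senescent DMSO cells. They took 0.458, 0.479 and 0.491% in control IMP1088 cells and 0.458, 0.470 and 0.465% in control DDD86481 cells, all below the lowest control DMSO library. In senescent cells the shares were 0.747, 0.765 and 0.753% with IMP1088 and 0.739, 0.777 and 0.744% with DDD86481. The senescent libraries all lay above all control libraries. In bulk RNA, a change in the number of cells of a type and a change in RNA per cell cannot be told apart. RNA levels do not show the amount of subunit protein, of assembled particles or of proteasome activity, which were not measured in these libraries.

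Compared per kilobase of the canonical transcript, the highest proteasome gene of control DMSO cells was PSMB4, a constitutive β subunit, at 247 ± 64.1 CPM per kb (SD, n = 3). PSMD2 was in rank 9 there, at 122 ± 1.39 CPM per kb. In senescent DMSO cells PSMD2 was in rank 1, at 408 ± 28.3 CPM per kb, with PSMB4 next. PSMB9 moved from rank 41 (15.9 ± 4.00 CPM per kb) to rank 46, the last of the genes tested (4.24 ± 0.814 CPM per kb).

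**Figure D1:**
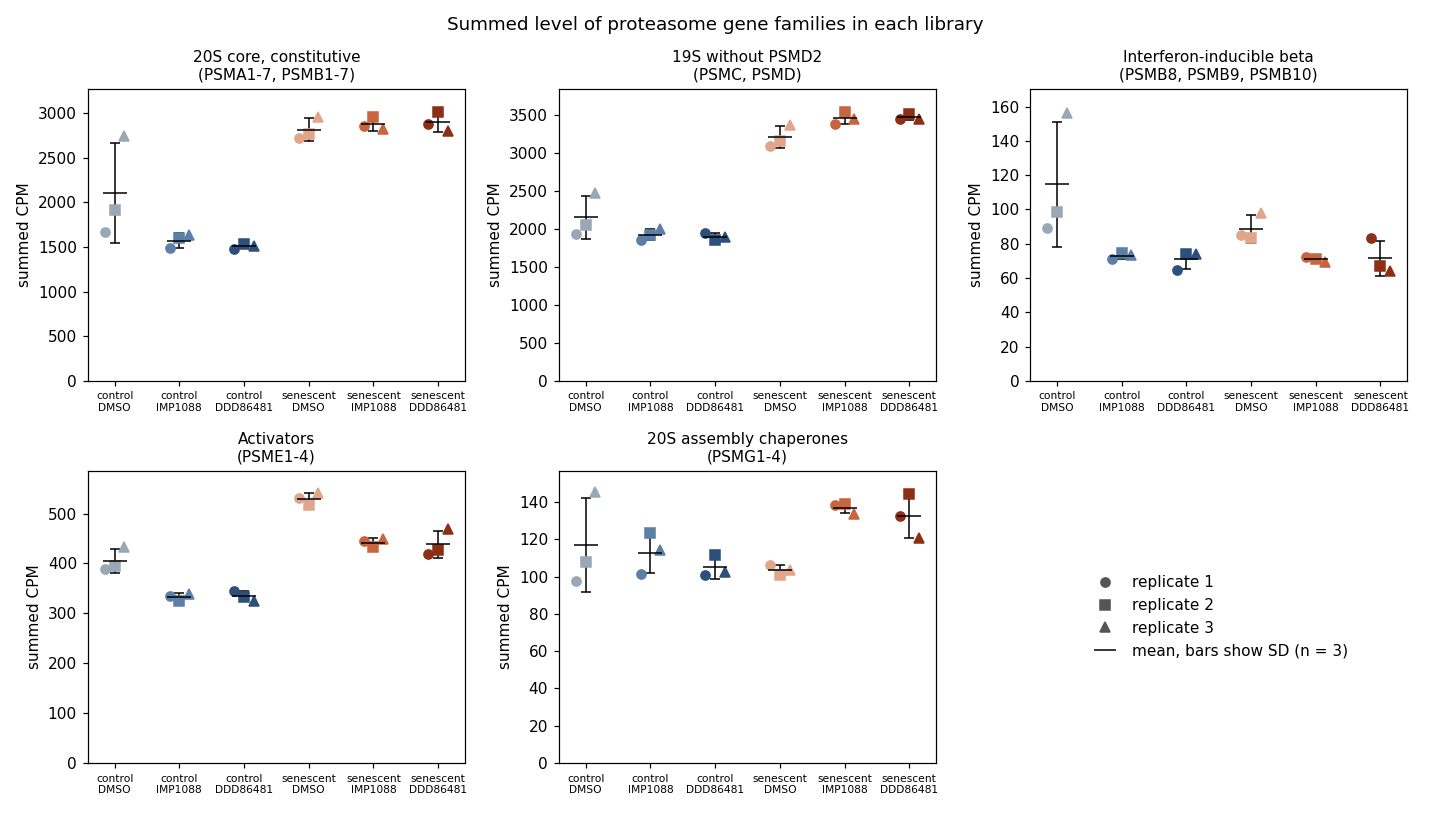
Summed CPM (vertical axis) of 5 sets of proteasome genes in each of the 18 libraries, by group (horizontal axis); symbols mark replicates, and bars the mean and SD (n = 3). The constitutive core and the 19S genes without PSMD2 had higher means in senescent than in control cells, at 2813 ± 129 against 2105 ± 560 CPM and 3204 ± 142 against 2152 ± 283 CPM with DMSO, whereas the interferon-inducible β genes were at 88.7 ± 8.14 against 115 ± 36.3 CPM. For the core the DMSO libraries overlapped: the highest control library was at 2737 CPM and the lowest senescent one at 2717 CPM. The inducible β genes overlapped as well, at 89.1 to 156 CPM in control and 83.2 to 98.1 CPM in senescent DMSO libraries. The sums were not tested.

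To ask how oncogene-induced senescence changed the RNA of proteasome genes, senescent DMSO cells were compared with control DMSO cells. Most genes of the constitutive particle were higher in senescence: the base scaffold PSMD2 rose 3.35-fold, the ATPase PSMC4 2.20-fold and the lid subunit PSMD8 2.23-fold. The immunoproteasome subunit PSMB9 moved the other way and fell by 1.90 on the log2 scale. In all, 26 of the 46 genes were called higher and 4 lower, where 32.5% of all genes tested were called higher and 36% lower. The median log2 fold change of the 46 was 0.33, against -0.05 over all genes. By role, the genes called higher were 6 of 7 constitutive β subunits, 6 of 8 lid subunits, 3 of 3 base scaffold and receptor subunits (PSMD1, PSMD2 and the ubiquitin receptor PSMD4), 3 of 6 ATPases, 2 of 7 α subunits, 1 of 3 base chaperones, 3 of 4 PSME genes, PSMF1 and 1 of 4 PSMG genes. The α ring had a median of 0.17 and the lid one of 0.81. The plot of log2 fold changes by gene shows the same comparison for each of the 46 genes.

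**Figure D2:**
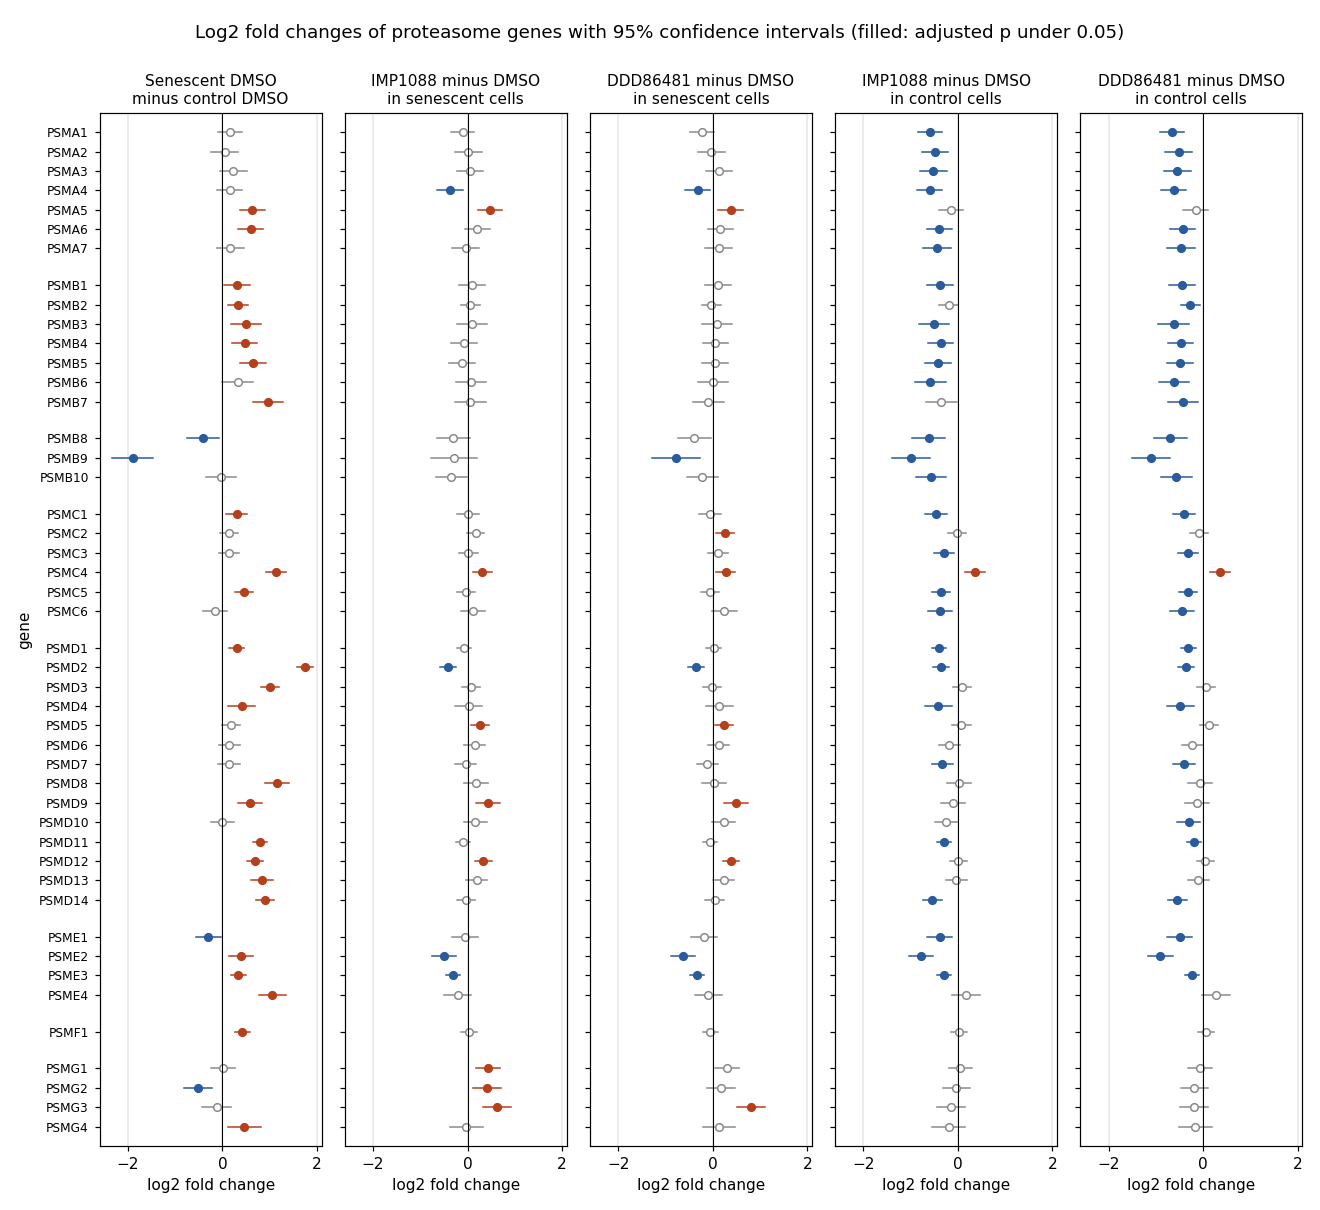
Log2 fold change (horizontal axis, log2 scale) of the 46 proteasome genes tested (vertical axis, grouped by gene family) with its 95% confidence interval, in 5 comparisons; filled points had an adjusted p under 0.05, red higher, blue lower and grey not called. In senescence 26 genes were called higher and 4 lower, with PSMD2 at 1.74 and PSMB9 at -1.90 at the ends; in control cells 27 were called lower with IMP1088 and 30 with DDD86481 and only PSMC4 higher, counts that fell to 12 and 16 without control DMSO replicate 3.

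PSMD2, the scaffold of the 19S base that docks ubiquitin carriers, was measured at 360.0, 353 and 353 CPM in the control DMSO libraries and at 1164, 1122 and 1281 CPM in the senescent ones. It showed the largest rise among the 46 genes (log2 fold change 1.74 ± 0.084, adjusted p = 2.12e-13), and its control libraries lay close together, replicate 3 included. Lid genes rose as well, namely PSMD3 (log2 fold change 1.01 ± 0.090), PSMD14 (0.90 ± 0.094), PSMD13 (0.83 ± 0.11), PSMD11 (0.80 ± 0.072) and PSMD12 (0.69 ± 0.085), with PSMD8 at the top (log2 fold change 1.16 ± 0.12, adjusted p = 5.09e-08). PSMD8 was at 179, 174 and 229.8 CPM in control DMSO cells and at 419.7, 415 and 465 CPM in senescent ones, without overlap. PSMD14, which removes ubiquitin chains from substrates, was at 80.01, 81.8 and 105 CPM in control and at 161, 163 and 172 CPM in senescent libraries. PSMD12 was at 62.3, 72.4 and 73.1 CPM in control and 114, 118 and 103 CPM in senescent libraries. Senescent libraries lay above control libraries for both. The lid subunits PSMD6 and PSMD7 were not called (0.15, adjusted p = 0.230 and 0.14, adjusted p = 0.263).

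Among the ATPases, which thread substrates into the core, PSMC4 stood at 105, 101 and 116 CPM in control DMSO and at 215, 232 and 259.5 CPM in senescent DMSO libraries (log2 fold change 1.14 ± 0.10, adjusted p = 3.74e-09), with no overlap. PSMC5 (0.46) and PSMC1 (0.30), whose protein is itself N-myristoylated, were called higher too. PSMC2 was at 124, 138 and 158 CPM in control and at 148, 154 and 160.4 CPM in senescent libraries, which overlapped (0.14, adjusted p = 0.177), and PSMC3 and PSMC6 were likewise not called. Of the base chaperones, PSMD9 was at 51.8, 62.4 and 80.9 CPM in control cells and at 90.9, 95.3 and 104 CPM in senescent cells (log2 fold change 0.58 ± 0.12, adjusted p = 0.000316), all senescent libraries being higher. PSMD5 and PSMD10 were not called.

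In the 20S core, 2 of the 3 constitutive catalytic subunits were called higher. PSMB7, which cleaves after basic residues, was at 126, 127 and 199.5 CPM in control and at 282, 281 and 315 CPM in senescent DMSO libraries (log2 fold change 0.96 ± 0.16, adjusted p = 1.62e-05). PSMB5, the chymotrypsin-like subunit targeted by bortezomib, was at 164, 180.1 and 264 CPM in control and 298, 309.9 and 342 CPM in senescent libraries (log2 fold change 0.65 ± 0.13, adjusted p = 0.000228). For both genes the senescent libraries lay above the control libraries, of which replicate 3 was the highest. PSMB6, the caspase-like subunit, was at 83.6, 99.2 and 155 CPM in control and at 129, 131 and 161 CPM in senescent libraries, which overlapped because control replicate 3 lay within the senescent range. It was not called (log2 fold change 0.32 ± 0.15, adjusted p = 0.0714), with a 95% confidence interval from -0.00 to 0.64, and was called without that library, at 0.62 (adjusted p = 3.16e-05).

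Of the α ring, which forms the gate of the core, PSMA5 was at 97.1, 113 and 160.2 CPM in control and at 182, 189 and 204 CPM in senescent DMSO libraries, without overlap (log2 fold change 0.63 ± 0.13, adjusted p = 0.000171). PSMA6 rose too (log2 fold change 0.60 ± 0.13). PSMA4 was at 122, 152 and 204 CPM in control DMSO and at 176, 187 and 167 CPM in senescent DMSO libraries, and control replicate 3 was the highest of the 6 libraries (log2 fold change 0.15 ± 0.13, adjusted p = 0.309). It was among the 5 α genes that were not called.

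The immunoproteasome subunits did not follow their constitutive partners. PSMB9, which replaces PSMB6, was at 13.9, 13.8 and 20.9 CPM in control and at 4.75, 3.36 and 4.84 CPM in senescent DMSO libraries (log2 fold change -1.90 ± 0.21, adjusted p = 9.75e-08). All senescent libraries were lower. PSMB8, which replaces PSMB5, was at 37, 43.8 and 72.2 CPM in control and at 39.2, 36 and 39.7 CPM in senescent libraries (log2 fold change -0.41 ± 0.17, adjusted p = 0.0337). These overlapped, control replicate 3 alone lay far above the senescent range, and without it the call was lost, at -0.08 (adjusted p = 0.543), while PSMB9 stayed lower, at -1.68 (adjusted p = 9.24e-08). PSMB10, which replaces PSMB7, was at 38.2, 40.9 and 63 CPM in control and 41, 43.8 and 53.6 CPM in senescent libraries and was not called (log2 fold change -0.04 ± 0.15, adjusted p = 0.848), with a 95% confidence interval from -0.36 to 0.29.

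As a description, the ratio of each inducible subunit to its partner was computed per kilobase. PSMB9 came to 11.9 ± 1.38% of PSMB6 in control DMSO cells and to 2.50 ± 0.451% in senescent DMSO cells (SD, n = 3). PSMB10 came to 31.6 ± 0.899 and 15.8 ± 1.24% of PSMB7, and PSMB8 to 23 ± 2.24 and 11.3 ± 0.817% of PSMB5. Each ratio was thus lower in the senescent libraries, and its spread among control libraries was small although the levels of both genes differed there. With IMP1088 the ratio of PSMB9 to PSMB6 was 8.79 ± 1.08% in control and 1.97 ± 0.655% in senescent cells, and with DDD86481 8.31 ± 1.41 and 1.45 ± 0.165%. PSMB8 to PSMB5 was 20.4 ± 0.838 and 9.90 ± 0.179% with IMP1088, and 20.3 ± 1.80 and 8.28 ± 0.441% with DDD86481. PSMB10 to PSMB7 was 27.2 ± 1.01 and 11.9 ± 0.269% with IMP1088, and 28.6 ± 0.468 and 15.6 ± 6.85% with DDD86481, where senescent replicate 1 alone was at 23.5%.

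**Figure D3:**
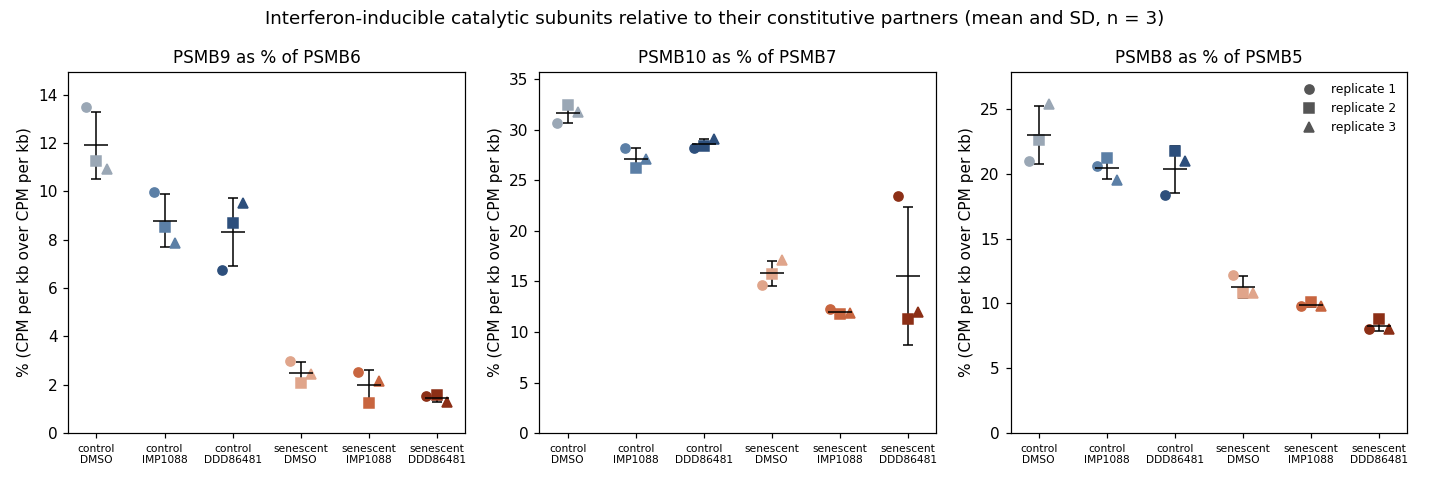
Level of an interferon-inducible catalytic subunit as a percentage of its constitutive partner (vertical axis, CPM per kb over CPM per kb) in each of the 18 libraries by group (horizontal axis), with the mean and SD (n = 3). With DMSO the ratio fell from 11.9 to 2.50% for PSMB9 over PSMB6, from 31.6 to 15.8% for PSMB10 over PSMB7 and from 23 to 11.3% for PSMB8 over PSMB5 between control and senescent cells.

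The activators split. PSME4, a large nuclear cap also known as PA200, was at 99.1, 84.5 and 60.3 CPM in control and at 177, 169.7 and 160.3 CPM in senescent DMSO libraries (log2 fold change 1.05 ± 0.14, adjusted p = 1.17e-06). Here control replicate 3 was the lowest library. PSME3, the nuclear activator PA28γ, was at 136, 138 and 126 CPM in control and 162, 169.8 and 173 CPM in senescent libraries (log2 fold change 0.33 ± 0.074, adjusted p = 0.000445), without overlap. PSME1 and PSME2 encode the interferon-inducible PA28 cap. PSME1 was at 89.96, 104 and 151 CPM in control and at 95.7, 84.2 and 99.7 CPM in senescent libraries (log2 fold change -0.30 ± 0.13, adjusted p = 0.0436), a call that was lost without control replicate 3, at -0.06 (adjusted p = 0.580). PSME2 was at 62.9, 68.3 and 96 CPM in control and 95.9, 93.8 and 108 CPM in senescent libraries (log2 fold change 0.39 ± 0.12, adjusted p = 0.00712), where control replicate 3 lay within the senescent range. Its call was lost with upper quartile scaling, at 0.23 (adjusted p = 0.102).

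PSMF1, which binds the core and inhibits it in vitro, was at 92.6, 94.3 and 84.3 CPM in control and at 118, 114 and 132 CPM in senescent DMSO libraries (log2 fold change 0.42 ± 0.077, adjusted p = 6.24e-05), all senescent libraries being higher. The chaperones of the α ring moved little or in both directions. PSMG1 was at 27.1, 28 and 36.2 CPM in control and 33.2, 31.3 and 28 CPM in senescent libraries (log2 fold change 0.02 ± 0.12, adjusted p = 0.892), and its partner PSMG2 at 42.3, 49.1 and 66.5 CPM in control and 39.3, 36.5 and 34.9 CPM in senescent libraries (log2 fold change -0.51 ± 0.14, adjusted p = 0.00333). PSMG2 was thus lower in each senescent library, and PSMG1 overlapped. PSMG3 was at 20.1, 19.2 and 30.3 CPM in control and at 20.2, 19.9 and 23.4 CPM in senescent libraries (log2 fold change -0.13 ± 0.14, adjusted p = 0.450), and its partner PSMG4 at 8.10, 11.7 and 12.1 CPM in control and 13.6, 13.3 and 17.1 CPM in senescent libraries (log2 fold change 0.46 ± 0.16, adjusted p = 0.0171). PSMG4 lost its call with upper quartile scaling, at 0.31 (adjusted p = 0.111).

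**Figure D4:**
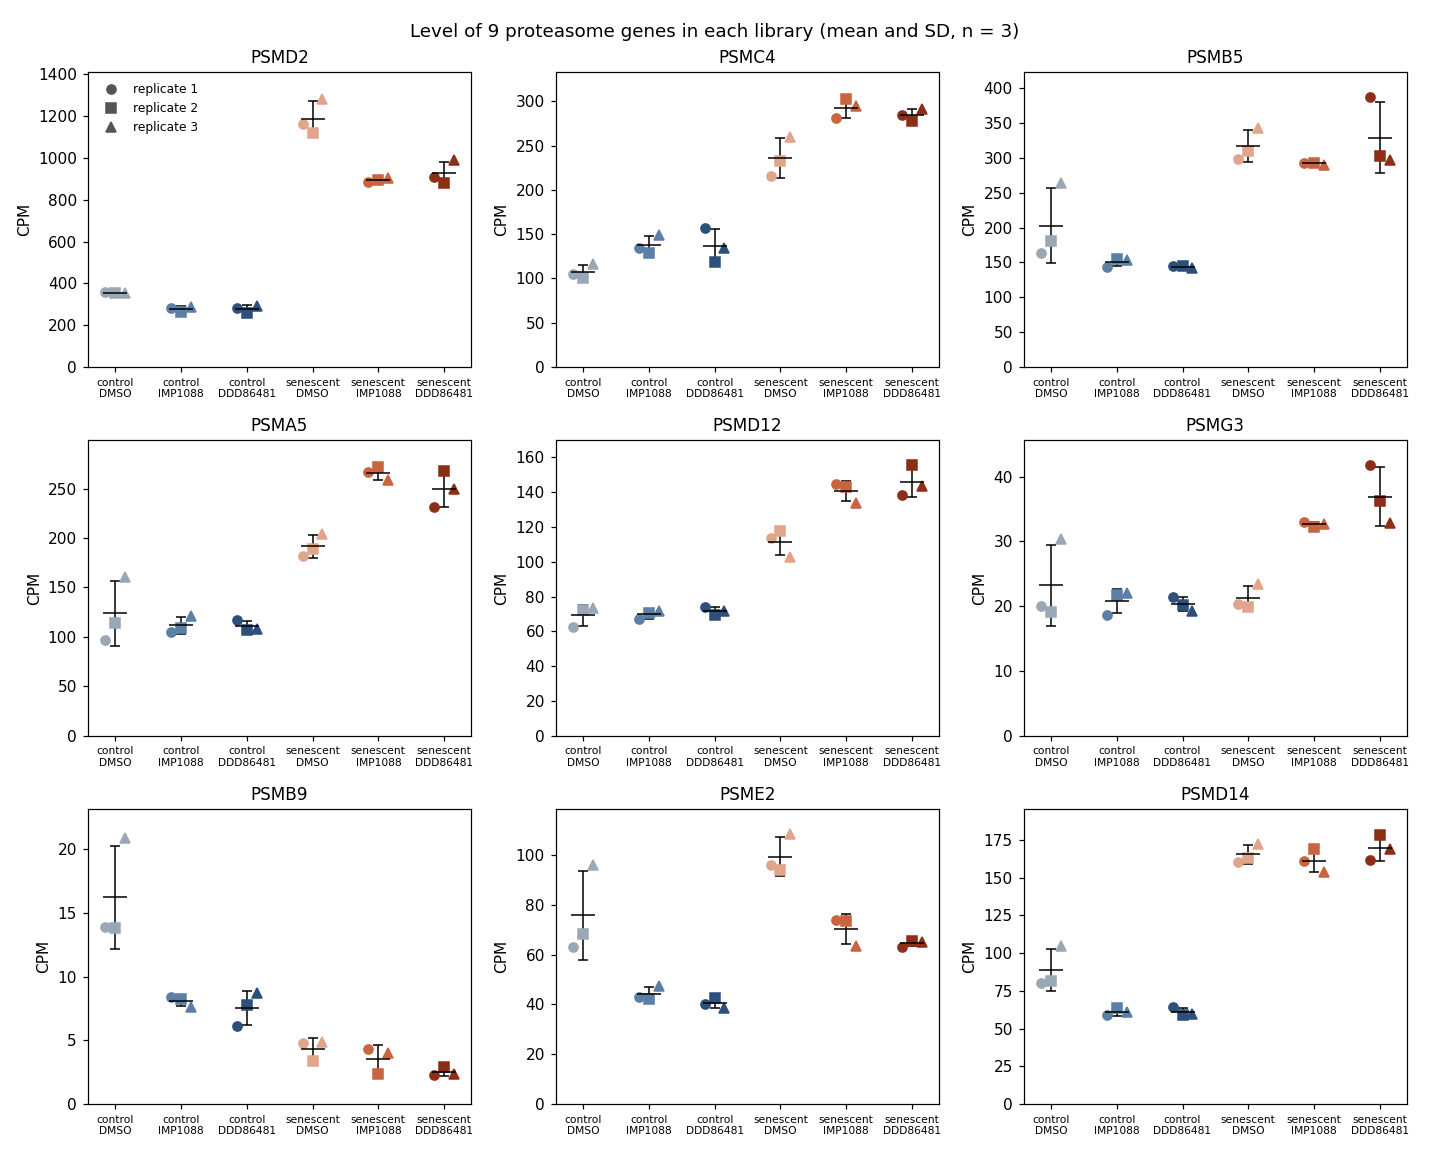
CPM (vertical axis, linear, from 0) of 9 proteasome genes in each of the 18 libraries by group (horizontal axis), with the mean and SD (n = 3); symbols mark replicates. PSMD2 was at 353 to 360.0 CPM in control DMSO and 1122 to 1281 CPM in senescent DMSO libraries, PSMB9 was the only one of the 9 called lower in senescent than in control DMSO cells, and PSMG3 was called higher with either inhibitor in senescent cells and in neither comparison in control cells.

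Without control DMSO replicate 3, 37 genes were called higher and 2 lower in senescence (33.5% and 35.6% of all genes), with a median of 0.48. Without senescent DMSO replicate 3, 23 were called higher and 3 lower (30.1% and 33.5%). Other scalings moved the split: 18 higher and 5 lower with upper quartile scaling (26.5% and 42.9% of all genes) and 15 higher and 6 lower with library totals (23.3% and 47.3%), under which the median of all genes shifted by -0.15 and -0.25 and that of the 46 came to 0.17 and 0.08, and no called gene changed sign. Under every alternative tried, 17 of the 30 calls held, namely PSMA5, PSMA6, PSMB5, PSMB7, PSMC4, PSMC5, PSMD2, PSMD3, PSMD8, PSMD9, PSMD11 to PSMD14 and PSME4 as higher, and PSMB9 and PSMG2 as lower.

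The promoters of 5 genes are shown, each as the 250 bases before the RefSeq transcription start on GRCh38.p14, 5′ to 3′ on the strand of the gene. Capitals mark 3 motifs, searched on both strands: the antioxidant response element TGACNNNGC, which NRF1 and NRF2 bind, the CCAAT box, and GAAA repeated after any 2 bases, a form of the interferon-stimulated response element. The 3 motifs do not overlap in the sequences shown.
PSMD2, chr3:184298991-184299240, plus strand: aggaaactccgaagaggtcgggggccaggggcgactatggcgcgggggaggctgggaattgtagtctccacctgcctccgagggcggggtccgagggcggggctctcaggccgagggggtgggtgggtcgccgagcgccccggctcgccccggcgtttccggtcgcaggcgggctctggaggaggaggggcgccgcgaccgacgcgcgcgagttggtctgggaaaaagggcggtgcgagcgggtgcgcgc
PSMD12, chr17:67366578-67366827, minus strand: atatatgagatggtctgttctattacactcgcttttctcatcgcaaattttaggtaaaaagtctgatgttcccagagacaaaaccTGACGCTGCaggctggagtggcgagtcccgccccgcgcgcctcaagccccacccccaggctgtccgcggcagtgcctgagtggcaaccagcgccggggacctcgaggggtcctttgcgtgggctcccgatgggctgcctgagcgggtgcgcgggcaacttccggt
PSMB9, chr6:32853942-32854191, plus strand: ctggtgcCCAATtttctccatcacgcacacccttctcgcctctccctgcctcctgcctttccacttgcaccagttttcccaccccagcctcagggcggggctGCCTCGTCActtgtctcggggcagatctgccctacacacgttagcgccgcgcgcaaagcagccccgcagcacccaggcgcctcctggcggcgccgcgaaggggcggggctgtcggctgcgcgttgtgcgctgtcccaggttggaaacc
PSMB10, chr16:67936851-67937100, minus strand: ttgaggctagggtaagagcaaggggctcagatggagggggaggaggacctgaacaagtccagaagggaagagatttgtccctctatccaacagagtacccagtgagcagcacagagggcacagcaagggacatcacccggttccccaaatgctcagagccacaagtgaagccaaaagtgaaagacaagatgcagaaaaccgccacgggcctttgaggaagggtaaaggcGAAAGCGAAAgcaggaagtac
PSME2, chr14:24146611-24146860, minus strand: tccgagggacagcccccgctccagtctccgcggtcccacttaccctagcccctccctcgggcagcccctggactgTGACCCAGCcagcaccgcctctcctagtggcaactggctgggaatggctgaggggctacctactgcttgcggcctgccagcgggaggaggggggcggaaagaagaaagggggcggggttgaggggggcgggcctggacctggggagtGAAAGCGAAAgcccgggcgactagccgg

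PSMD2, which rose most in senescence, held none of the 3 motifs in this window. PSMD12, which was higher in senescence and higher again with either inhibitor in senescent cells, held an antioxidant response element that starts at -165. PSMB9 and PSME2 both fell with DDD86481 in both states: PSMB9 held a CCAAT box at -243 and an antioxidant response element on the other strand at -148, and PSME2 held an antioxidant response element at -175 and the interferon motif at -28. PSMB10, which was not called in senescence, held the interferon motif at -21. A promoter was found for 42 of the 48 genes. Over the 250 bases before and 50 after the start, 13 of these 42 (31.0%) held the antioxidant motif, against 13.6% of all 27305 promoters. The CCAAT box was in 19 (45.2%, against 35.7%) and the interferon motif in 6 (14.3%, against 3.65%). A match describes letters and not a bound site.

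To ask what the NMT inhibitors did to proteasome genes in senescent cells, each was compared with DMSO there. Over the 46 genes the median log2 fold change was 0.02 with IMP1088 and 0.04 with DDD86481 (-0.04 over all genes in both), and their summed levels were 7995 ± 140 and 8046 ± 94.7 CPM against 8050 ± 373 CPM with DMSO. Single genes were called, but at lower shares than over all genes. IMP1088 raised 8 of 46 (17.4%) and lowered 4 (8.7%), against 20.6% and 23.9% of all genes. DDD86481 raised 7 (15.2%) and lowered 5 (10.9%), against 20.1% and 23.1%. Those raised were chaperones (PSMG3, PSMD9, PSMD5), the α subunit PSMA5, the lid subunit PSMD12 and the ATPase PSMC4 in each comparison. Those lowered in each were PSMD2, PSMA4 and the activators PSME2 and PSME3. Both comparisons use the same senescent DMSO libraries. With library totals as the scaling the splits were 10 higher and 3 lower with IMP1088 (24.6% and 19.6% of all genes) and 10 higher and 4 lower with DDD86481 (23.5% and 19.7%). With the length trend removed they were 7 higher and 8 lower (21.9% and 26.4%), and 6 higher and 9 lower (21.8% and 25.6%). Without senescent DMSO replicate 3 they were 6 higher and 4 lower (18.3% and 20.4%), and 6 higher and 3 lower (17.3% and 19.8%). From here on, where values of both inhibitors follow each other, that for IMP1088 comes first.

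PSMG3, a partner in the PSMG3 and PSMG4 chaperone of the α ring, was at 32.9, 32.1 and 32.7 CPM with IMP1088 (log2 fold change 0.62 ± 0.14, adjusted p = 0.00145) and at 41.8, 36.1 and 32.8 CPM with DDD86481 (log2 fold change 0.80 ± 0.14, adjusted p = 0.000140). All 6 libraries lay above the senescent DMSO range given above. Its partner PSMG4 was at 13.3, 15.5 and 14.5 CPM with IMP1088 and 19.8, 15 and 13.5 CPM with DDD86481, overlapped DMSO and was not called (-0.03, adjusted p = 0.914, and 0.14, adjusted p = 0.521). PSMG1 was at 41.9, 41.2 and 40.8 CPM with IMP1088 (log2 fold change 0.42 ± 0.12, adjusted p = 0.00765) and at 34.5, 43.4 and 35.6 CPM with DDD86481, where it was not called (log2 fold change 0.30 ± 0.12, adjusted p = 0.0558). PSMG2 was at 50.4, 50.02 and 45.7 CPM with IMP1088 (log2 fold change 0.40 ± 0.14, adjusted p = 0.0269) and at 36.6, 49.7 and 38.8 CPM with DDD86481 (log2 fold change 0.18 ± 0.14, adjusted p = 0.334). The difference between the inhibitors was not called for any of the 4.

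PSMA5 was at 267, 272 and 259 CPM with IMP1088 (log2 fold change 0.47 ± 0.13, adjusted p = 0.00456) and at 232, 268 and 249 CPM with DDD86481 (log2 fold change 0.38 ± 0.13, adjusted p = 0.0194), all above DMSO. PSMA4 went down, to 134, 139.9 and 134 CPM (log2 fold change -0.37 ± 0.13, adjusted p = 0.0227) and 134, 160.2 and 129.8 CPM (log2 fold change -0.32 ± 0.13, adjusted p = 0.0494). Its inhibitor libraries all lay below the DMSO libraries. PSMD12, a scaffold of the lid, was at 145, 143 and 134 CPM (log2 fold change 0.33 ± 0.085, adjusted p = 0.00296) and 138, 156 and 144 CPM (log2 fold change 0.39 ± 0.085, adjusted p = 0.000907). PSMD9 was at 127, 133 and 129.6 CPM (log2 fold change 0.42 ± 0.12, adjusted p = 0.00770) and 152, 134 and 120.0 CPM (log2 fold change 0.48 ± 0.12, adjusted p = 0.00302). Neither gene overlapped DMSO with either inhibitor.

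PSMD2, the gene that rose most in senescence, was at 885, 895 and 907 CPM with IMP1088 (log2 fold change -0.41 ± 0.082, adjusted p = 0.000400) and at 910.0, 883 and 990.1 CPM with DDD86481 (log2 fold change -0.36 ± 0.082, adjusted p = 0.00138). All 6 libraries were below senescent DMSO and far above every control library. PSMC4 was at 281, 303 and 295 CPM (log2 fold change 0.31 ± 0.10, adjusted p = 0.0146) and 284, 278 and 291 CPM (log2 fold change 0.27 ± 0.10, adjusted p = 0.0333), above DMSO in each library. With the length trend removed the IMP1088 value was 0.22 (adjusted p = 0.0540), and the DDD86481 call was lost too. Neither PSMC4 call held in each of the fits that left out 1 library. PSMC2 was at 174, 172 and 173 CPM with IMP1088 (log2 fold change 0.17 ± 0.090, adjusted p = 0.140) and at 201, 183 and 172 CPM with DDD86481 (log2 fold change 0.27 ± 0.090, adjusted p = 0.0219). PSMC2 thus passed the test with DDD86481, although all libraries of both inhibitors lay above the DMSO libraries.

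Among the activators, PSME2 was at 74, 73.6 and 63.2 CPM with IMP1088 (log2 fold change -0.50 ± 0.12, adjusted p = 0.00224) and at 63.1, 65.6 and 65 CPM with DDD86481 (log2 fold change -0.62 ± 0.12, adjusted p = 0.000348). PSME3 was at 131, 136 and 140.5 CPM (log2 fold change -0.31 ± 0.074, adjusted p = 0.00200) and 128, 135 and 135 CPM (log2 fold change -0.34 ± 0.074, adjusted p = 0.000910). Both genes were below DMSO in all 6 inhibitor libraries. PSME1 was at 91.9, 90.5 and 86.2 CPM with IMP1088 and 81.7, 84.4 and 80.2 CPM with DDD86481 and PSME4 at 147, 132 and 159 CPM with IMP1088 and 145, 142 and 188 CPM with DDD86481, and neither was called (PSME1 -0.06, adjusted p = 0.745, and -0.18, adjusted p = 0.266; PSME4 -0.21, adjusted p = 0.226, and -0.10, adjusted p = 0.606). PSMF1, at 123, 127 and 121 CPM with IMP1088 and 115, 115 and 119 CPM with DDD86481, was not called either (0.03, adjusted p = 0.800, and -0.06, adjusted p = 0.590).

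The catalytic subunits of the constitutive core showed no call with either inhibitor. PSMB5 was at 293, 293 and 290.3 CPM with IMP1088 and at 387, 303 and 297 CPM with DDD86481, PSMB6 at 139, 152 and 151 CPM with IMP1088 and 123, 150.1 and 149 CPM with DDD86481, and PSMB7 at 307, 316 and 292 CPM with IMP1088 and 205, 317 and 302 CPM with DDD86481. Among senescent libraries PSMB5 was highest and PSMB7 lowest in DDD86481 replicate 1. The 95% confidence intervals with IMP1088 were -0.39 to 0.16 for PSMB5, -0.26 to 0.39 for PSMB6 and -0.26 to 0.38 for PSMB7, and with DDD86481 -0.22 to 0.33, -0.32 to 0.32 and -0.41 to 0.23.

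Of the inducible subunits, PSMB9 was at 4.31, 2.35 and 3.98 CPM with IMP1088 (log2 fold change -0.28 ± 0.23, adjusted p = 0.347) and at 2.29, 2.93 and 2.33 CPM with DDD86481 (log2 fold change -0.78 ± 0.25, adjusted p = 0.0147), where all libraries were below DMSO. PSMB8 was at 30.8, 31.8 and 30.7 CPM with IMP1088 and 33.3, 28.6 and 25.8 CPM with DDD86481, below every senescent DMSO library, yet was not called (-0.30, adjusted p = 0.156, and -0.39, adjusted p = 0.0681). PSMB10 was at 37.3, 36.9 and 34.4 CPM with IMP1088 and 47.7, 35.5 and 35.8 CPM with DDD86481 and was not called (-0.35, adjusted p = 0.0754, and -0.22, adjusted p = 0.275). Without senescent DDD86481 replicate 1, 9 genes were called with DDD86481, 5 higher and 4 lower (17.9% and 20.1% of all genes). PSMB9 (-0.71, adjusted p = 0.0547), PSMA4 (-0.28, adjusted p = 0.138), PSMC2 (0.20, adjusted p = 0.100), PSMC4 (0.27, adjusted p = 0.0608) and PSMD5 (0.20, adjusted p = 0.133) were then not called, PSMB8 was called lower (-0.49, adjusted p = 0.0470) and PSMG1 higher (0.36, adjusted p = 0.0382), and PSMG3 was at 0.70 (adjusted p = 0.00129). Under every alternative, PSMA5, PSMD9, PSMD12, PSMG1 and PSMG3 remained higher and PSMD2, PSME2 and PSME3 lower with IMP1088, and PSMD9, PSMD12 and PSMG3 remained higher and PSMD2, PSME2 and PSME3 lower with DDD86481.

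In control cells the same comparison gave mostly lower values. With IMP1088, 27 of 46 genes were called lower and 1 higher (17.4% and 16.3% of all genes), and with DDD86481 30 lower and 1 higher (18.7% and 17.8%). Median log2 fold changes were -0.35 and -0.34, against 0 over all genes. The 20S core took most of these calls: 6 of 7 α genes with either inhibitor, 5 of 7 constitutive β genes with IMP1088 and 7 of 7 with DDD86481, and 3 of 3 inducible β genes with either. Of the 19S genes, 4 of 6 ATPases, 3 of 3 base and 3 of 8 lid genes were called lower with either, and 3 of 4 PSME genes likewise. PSMC4 was the only gene called higher, and PSMF1 and the PSMG genes were not called. Both comparisons rest on the 3 control DMSO libraries, among which replicate 3 was high for 39 of 46 genes. Without it, 12 genes were called lower and 1 higher with IMP1088 (14.6% and 13.5% of all genes), and 16 lower and 1 higher with DDD86481 (14.5% and 14%), with medians of -0.16 and -0.21. With the length trend removed as well, 11 were called lower and 1 higher with either (16.1% and 14.1%, 15.6% and 13.8%), with medians of -0.10 and -0.11. The 20S core no longer took most of the calls. Its genes called lower were then PSMA1, PSMA4 and PSMB9 with IMP1088, and PSMA1, PSMA4, PSMB2 and PSMB9 with DDD86481. The others were 19S and PSME genes. In a fit of only the groups compared, which has fewer libraries to estimate the spread, 7 were called lower and 1 higher with IMP1088 (10.9% and 9.08%) and 6 lower and 0 higher with DDD86481 (11.6% and 9.37%), with medians of -0.35 and -0.34.

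**Figure D5:**
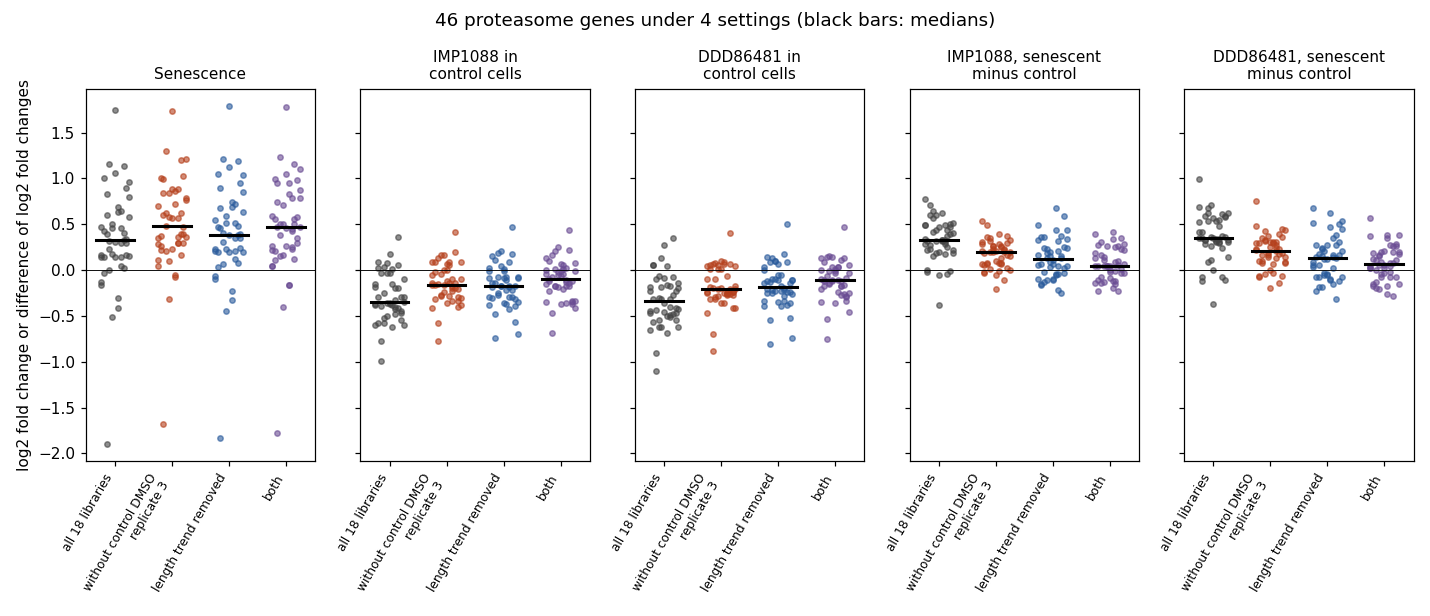
Log2 fold change, or difference of log2 fold changes between senescent and control cells (vertical axis, log2 scale), of the 46 proteasome genes (points, spread sideways for display) in 5 comparisons under 4 settings (horizontal axis); black bars are medians over the 46. The median for IMP1088 in control cells moved from -0.35 to -0.16 without control DMSO replicate 3 and to -0.10 with the length trend removed as well, whereas that for senescence lay between 0.33 and 0.48 under these 4 settings.

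Several genes were lower in control cells under every alternative. PSME2 was at 42.9, 42 and 47.5 CPM with IMP1088 (log2 fold change -0.78 ± 0.12, adjusted p = 6.57e-05) and at 40.3, 42.5 and 38.5 CPM with DDD86481 (log2 fold change -0.90 ± 0.12, adjusted p = 1.37e-05), below all control DMSO libraries. Without control DMSO replicate 3 the values were -0.57 (adjusted p = 6.78e-05) and -0.70 (adjusted p = 7.26e-06). PSMB9 was at 8.43, 8.24 and 7.63 CPM (log2 fold change -0.996 ± 0.19, adjusted p = 0.000555) and 6.10, 7.73 and 8.74 CPM (log2 fold change -1.10 ± 0.20, adjusted p = 0.000226), also without overlap. Without replicate 3 it was at -0.77 (adjusted p = 0.00255) and -0.88 (adjusted p = 0.000925). PSMD2, for which the 3 control DMSO libraries lay close together, was at 282, 262 and 289 CPM (log2 fold change -0.35 ± 0.082, adjusted p = 0.00245) and 283, 257 and 292 CPM (log2 fold change -0.36 ± 0.082, adjusted p = 0.00229). PSMD14, the lid gene with the largest fall, was at 58.7, 63.6 and 60.8 CPM (log2 fold change -0.54 ± 0.095, adjusted p = 0.000200) and 64, 59 and 59.6 CPM (log2 fold change -0.54 ± 0.095, adjusted p = 0.000182). Neither gene overlapped DMSO.

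PSMA1, the α gene with the largest fall, was at 119.5, 126 and 173 CPM with DMSO, at 92.6, 93.3 and 90.3 CPM with IMP1088 (log2 fold change -0.60 ± 0.12, adjusted p = 0.000774) and at 85.9, 90.5 and 90.2 CPM with DDD86481 (log2 fold change -0.65 ± 0.12, adjusted p = 0.000355). The inhibitor libraries all lay below DMSO, and without replicate 3 its values were -0.42 (adjusted p = 0.00279) and -0.47 (adjusted p = 0.00104). PSMC4 went up, to 134, 129 and 149 CPM (log2 fold change 0.36 ± 0.10, adjusted p = 0.00959) and 157, 119 and 134 CPM (log2 fold change 0.35 ± 0.10, adjusted p = 0.0101). It was above DMSO in all 6 libraries, as it was in senescent cells. The ATPase genes with the largest fall were PSMC1 with IMP1088 (log2 fold change -0.47 ± 0.11, adjusted p = 0.00293) and PSMC6 with DDD86481 (log2 fold change -0.45 ± 0.12, adjusted p = 0.00868). Without replicate 3 they were at -0.30 (adjusted p = 0.0169) and -0.24 (adjusted p = 0.0695).

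Of the catalytic subunits, PSMB6 was at 68.5, 78.2 and 78.7 CPM with IMP1088 and at 73.2, 72.2 and 74.5 CPM with DDD86481 (log2 fold change -0.58 ± 0.16, adjusted p = 0.00704, and log2 fold change -0.62 ± 0.16, adjusted p = 0.00444). It was the constitutive β gene with the largest fall with IMP1088, and PSMB3, a structural β subunit, was that with DDD86481 (log2 fold change -0.63 ± 0.15, adjusted p = 0.00341). PSMB5 was at 144, 155 and 153 CPM with IMP1088 and 146, 144 and 142 CPM with DDD86481 (-0.43, adjusted p = 0.0173, and -0.49, adjusted p = 0.00688), and PSMB7 at 109, 119 and 126 CPM with IMP1088 and 106, 115 and 115 CPM with DDD86481 (-0.35, adjusted p = 0.0875, and -0.43, adjusted p = 0.0377). Without control DMSO replicate 3, PSMB6 was at -0.28 (adjusted p = 0.0554) and -0.32 (adjusted p = 0.0306), PSMB5 at -0.19 (adjusted p = 0.151) and -0.26 (adjusted p = 0.0517) and PSMB7 at -0.10 (adjusted p = 0.614) and -0.17 (adjusted p = 0.332), and PSMB3 at -0.29 (adjusted p = 0.0116) with DDD86481. The catalytic genes that had been called thus lost their calls, save for PSMB6 with DDD86481.

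PSMB8 was at 31.9, 35.3 and 32.1 CPM with IMP1088 and at 28.7, 33.8 and 32.1 CPM with DDD86481 (-0.62, adjusted p = 0.00672, and -0.69, adjusted p = 0.00304), and PSMB10 at 30.5, 31 and 34 CPM with IMP1088 and 29.8, 32.4 and 33.3 CPM with DDD86481 (-0.57, adjusted p = 0.00775, and -0.57, adjusted p = 0.00755). Without replicate 3, PSMB8 was at -0.29 (adjusted p = 0.0541) and -0.36 (adjusted p = 0.0171), and PSMB10 at -0.31 (adjusted p = 0.0616) and -0.31 (adjusted p = 0.0631). All inhibitor libraries lay below the DMSO libraries for both genes. PSME1 was at 86.4, 89 and 88.6 CPM with IMP1088 and 78.7, 86.1 and 78.8 CPM with DDD86481 (-0.38, adjusted p = 0.0258, and -0.50, adjusted p = 0.00492), and without replicate 3 at -0.14 (adjusted p = 0.252) and -0.25 (adjusted p = 0.0300). PSME3 was at 109, 105 and 112 CPM with IMP1088 and 118, 109 and 113 CPM with DDD86481 (-0.29, adjusted p = 0.00439, and -0.23, adjusted p = 0.0192). Both lay below DMSO in all 6 libraries.

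The other activators, the inhibitor and the chaperones were not called in control cells. PSME4 was at 97, 88.6 and 89.4 CPM with IMP1088 and 107, 94.2 and 94.2 CPM with DDD86481 (0.17, adjusted p = 0.359, and 0.27, adjusted p = 0.127), and PSMF1 at 93.4, 91.8 and 90.2 CPM with IMP1088 and 96.4, 92.5 and 93.9 CPM with DDD86481 (0.02, adjusted p = 0.854, and 0.06, adjusted p = 0.569). PSMG1 was at 28.8, 34.4 and 31.4 CPM with IMP1088 and 26.5, 31.4 and 28.8 CPM with DDD86481 (0.05, adjusted p = 0.764, and -0.07, adjusted p = 0.674), and PSMG2 at 45.9, 57.5 and 50.8 CPM with IMP1088 and 43.9, 50.03 and 44.9 CPM with DDD86481 (-0.03, adjusted p = 0.879, and -0.19, adjusted p = 0.317). All 4 genes overlapped DMSO. PSMG3 was at 18.7, 21.7 and 22 CPM with IMP1088 and 21.4, 20.2 and 19.3 CPM with DDD86481 (-0.15, adjusted p = 0.435, and -0.19, adjusted p = 0.319) and PSMG4 at 8.03, 9.84 and 9.91 CPM with IMP1088 and 8.82, 10.2 and 9.35 CPM with DDD86481 (-0.20, adjusted p = 0.382, and -0.17, adjusted p = 0.451), and both overlapped DMSO.

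Whether an inhibitor acted differently in senescent and control cells was tested by an interaction term, the log2 fold change of senescent cells less that of control cells. PSMG3 had the largest difference with both inhibitors, and was called higher in senescent cells and not called in control cells. In all, 12 of 46 genes were called with IMP1088 and 19 with DDD86481, all with the higher value in senescent cells (12.1% and 14.4% of all genes were called in that direction, and 14.2% and 15.9% in the other). Medians of the difference were 0.32 and 0.35, against 0 over all genes. These tests contain the control DMSO libraries, and without replicate 3 the calls were 4 (9.89% of all genes) and 9 (11.3%), with medians of 0.20 and 0.21. With the length trend removed as well they were 5 (10.2%) and 7 (11.2%). Leaving out control DMSO replicate 1, which deviated the other way, gave 28 higher and 1 lower with IMP1088 (17.4% and 18.8% of all genes) and 30 higher and 1 lower with DDD86481 (19.2% and 20.7%).

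For PSMG3 the difference was 0.77 ± 0.20 with IMP1088 (adjusted p = 0.00845) and 0.99 ± 0.20 with DDD86481 (adjusted p = 0.00140). Without control DMSO replicate 3 it was 0.54 (adjusted p = 0.0148) and 0.75 (adjusted p = 0.00109), and with the length trend removed as well 0.39 (adjusted p = 0.0434) and 0.57 (adjusted p = 0.00397). PSMG3 was called for either inhibitor under every alternative. The other largest differences with IMP1088 were those of PSMB6 (difference 0.65 ± 0.22, adjusted p = 0.0347), PSMA5 (difference 0.62 ± 0.18, adjusted p = 0.0153) and PSMB3 (difference 0.60 ± 0.21, adjusted p = 0.0442). Without replicate 3 they were 0.35 (adjusted p = 0.0897), 0.39 (adjusted p = 0.0242) and 0.26 (adjusted p = 0.0950). PSMA5 alone of the 3 was called in every alternative.

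With DDD86481 the other largest differences were those of PSMB3 (difference 0.71 ± 0.21, adjusted p = 0.0179), PSMC6 (difference 0.69 ± 0.18, adjusted p = 0.00665) and PSMA3 (difference 0.68 ± 0.19, adjusted p = 0.0127). Without replicate 3 they were 0.37 (adjusted p = 0.0175), 0.48 (adjusted p = 0.00877) and 0.42 (adjusted p = 0.0186), and with the length trend removed as well 0.09 (adjusted p = 0.524), 0.37 (adjusted p = 0.0223) and 0.17 (adjusted p = 0.279). PSMC6 and PSMD14 (difference 0.58 ± 0.13, adjusted p = 0.00320) remained called in every alternative. Among the catalytic subunits, PSMB5 (difference 0.55 ± 0.19, adjusted p = 0.0330) and PSMB6 (difference 0.62 ± 0.22, adjusted p = 0.0388) were called with DDD86481 and PSMB7 was not (0.33, adjusted p = 0.260); with IMP1088 PSMB5 and PSMB7 were not (0.31, adjusted p = 0.229, and 0.41, adjusted p = 0.172). Without replicate 3, PSMB5 and PSMB6 were at 0.31 (adjusted p = 0.0857) and 0.32 (adjusted p = 0.112) with DDD86481.

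No interaction was called for the inducible subunits, the activators or PSMF1. With IMP1088 and DDD86481 in turn, the difference was 0.32 and 0.30 for PSMB8, 0.71 and 0.32 for PSMB9, and 0.22 and 0.35 for PSMB10. It was 0.32 and 0.32 for PSME1, 0.28 and 0.28 for PSME2, -0.01 and -0.11 for PSME3, and -0.38 and -0.37 for PSME4. PSMF1 came to 0.01 and -0.12. The other α-ring chaperones had values of 0.37 and 0.37 (PSMG1), 0.44 and 0.36 (PSMG2) and 0.17 and 0.31 (PSMG4). PSMD2, which fell with both inhibitors in both states, had a difference of -0.05 with IMP1088 (95% confidence interval -0.30 to 0.19) and of -0.00 with DDD86481 (-0.25 to 0.24). PSMC4, which was called higher in all 4 comparisons, had -0.04 (-0.34 to 0.25) and -0.08 (-0.37 to 0.21). Of these calls, only that with IMP1088 in control cells held in each of the fits that left out 1 library.

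IMP1088 and DDD86481 were given at different doses, 300 nM and 1.5 µM. In the direct test of one against the other, edgeR's quasi-likelihood test called 0 of 46 proteasome genes in either state, 0 had an unadjusted p under 0.05, and DESeq2 called 0 as well. The 95% confidence intervals of the 46 differences ranged from -0.50 (PSMG4) to 1.01 (PSMB9) in senescent cells and from -0.39 (PSME4) to 0.53 (PSMB9) in control cells, and 43 and 45 of the 46 intervals lay within 0.5 either way. A difference inside the interval of its own gene remains possible.

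Genes that work with the proteasome were counted in the same fit. Of 12 other components and assembly factors, 7 were called higher and 1 lower in senescence (32.5% and 36% of all genes). They include ADRM1, a ubiquitin receptor of the base, at 0.81 (adjusted p = 5.46e-08), and POMP, which assembles the β ring, at 0.29 (adjusted p = 0.0416). With DDD86481 POMP was at 0.34 (adjusted p = 0.0326) in senescent and at -0.52 (adjusted p = 0.00265) in control cells, and with IMP1088 at 0.16 (adjusted p = 0.313) and -0.47 (adjusted p = 0.00628). Its interaction was 0.63 (adjusted p = 0.0122) with IMP1088 and 0.86 (adjusted p = 0.00129) with DDD86481. POMP was at 98.8 to 157 CPM in control DMSO and at 141 to 162 CPM in senescent DMSO libraries, which overlapped. Values of POMP and counts of the lists come from the fit that includes control DMSO replicate 3. In senescent cells, 4 of the 12 were called higher and 3 lower with IMP1088 (20.6% and 23.9% of all genes), and 5 higher and 3 lower with DDD86481 (20.1% and 23.1%). Among them the 19S-bound deubiquitylases UCHL5 and USP14 were higher, UCHL5 at 0.66 (adjusted p = 5.71e-05) and 0.66 (adjusted p = 6.42e-05) and USP14 at 0.34 (adjusted p = 0.00183) and 0.38 (adjusted p = 0.000774). The assembly factor PAAF1 was lower, at -0.49 (adjusted p = 0.00530) and -0.59 (adjusted p = 0.00126). In control cells 0 of the 12 were called higher and 2 lower with IMP1088 (16.3% and 17.4%), and 1 higher and 3 lower with DDD86481 (17.8% and 18.7%).

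The next list held genes of the NRF1 route, by which cells adjust proteasome genes, and related factors. The latter include NFE2L2, NFE2L3, KEAP1, BACH1, BTRC and FBXW7, so the counts are not those of the NRF1 route alone. Of 15 tested genes, 11 were called higher and 2 lower in senescence (32.5% and 36% of all genes). NFE2L1, encoding NRF1, was at 0.89 (adjusted p = 9.86e-07), and DDI2, the protease that activates it, at 1.14 (adjusted p = 1.51e-06). NFE2L2, encoding NRF2, was at -1.02 (adjusted p = 5.17e-09). In senescent cells NFE2L1 was not called with either inhibitor, at -0.10 (adjusted p = 0.510) and -0.01 (adjusted p = 0.971), and the related NFE2L3 fell, at -1.52 (adjusted p = 1.48e-09) and -1.68 (adjusted p = 5.25e-10). NFE2L3 was lower with the inhibitors in control cells too, at 110 ± 7.75 CPM with DMSO, 61.9 ± 5.23 CPM with IMP1088 and 66.1 ± 3.20 CPM with DDD86481 (SD, n = 3). Of the 15, 5 were called higher and 4 lower with IMP1088 (20.6% and 23.9% of all genes) and 5 higher and 2 lower with DDD86481 (20.1% and 23.1%) in senescent cells. In control cells the counts were 4 higher and 3 lower (16.3% and 17.4%) and 5 higher and 2 lower (17.8% and 18.7%). The same shares of all genes apply to the next lists. Of 6 ubiquitin genes, 2 were called higher and 1 lower in senescence. In senescent cells 2 of the 6 were called higher and 1 lower with IMP1088, and 3 higher and 1 lower with DDD86481. Of 11 genes of ubiquitin shuttling and receptors, 8 were called higher and 1 lower in senescence, and the autophagy receptor SQSTM1 was at 0.92 (adjusted p = 2.79e-08) there and at 1.53 (adjusted p = 2.93e-10) and 1.67 (adjusted p = 1.05e-10) with the inhibitors in senescent cells. There 2 of the 11 were called higher and 1 lower with each inhibitor. In control cells SQSTM1 was higher with the inhibitors as well. It was at 695 ± 26.9 CPM with DMSO, 1300 ± 77.5 CPM with IMP1088 and 1297 ± 8.05 CPM with DDD86481 there (SD, n = 3).

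MHC class I genes use the peptides that the proteasome makes. Of 13, 6 were called higher and 2 lower in senescence (32.5% and 36% of all genes). In senescent cells 2 were called higher and 7 lower with IMP1088 (20.6% and 23.9%), and 2 higher and 6 lower with DDD86481 (20.1% and 23.1%). TAP1, a peptide transporter gene that neighbours PSMB9 on chromosome 6, was at 1.16 (adjusted p = 2.34e-10) in senescence, where PSMB9 was at -1.90. With the inhibitors TAP1 was at -0.55 (adjusted p = 3.05e-05) and -0.64 (adjusted p = 5.21e-06) in senescent cells and at -0.39 (adjusted p = 0.00161) and -0.36 (adjusted p = 0.00313) in control cells. IRF1, a transcription factor of interferon-inducible genes, was at -0.57 (adjusted p = 0.00386) and -0.63 (adjusted p = 0.00181) in senescent cells, and NLRC5, the class I transactivator, at -0.83 (adjusted p = 0.00108) and -1.01 (adjusted p = 0.000188).

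Some of these counts are uncertain, since the strand setting of the counting was not given. On GRCh37, 76.2% of the exonic bases of PSMC1 are shared with NRDE2 on the other strand, 17.3% of those of PSMB8 with PSMB8-AS1, 15.3% of those of PSMC5 with FTSJ3 and 13.3% of those of PSMG4 with SLC22A23. PSMB10, PSMD7, PSMA1, PSMA2, PSMD9 and PSMA6 share between 12.5 and 39.4% with neighbours that have no row in the table. PSMC1 has 13 annotated pseudogenes, PSME2 6 and PSMA6 4, and reads from these could be counted with their parents or lost.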

How the data were processed

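The authors deposited raw read counts per gene symbol for 18 libraries. Per the study's methods, poly(A) RNA was made into directional libraries (NEBNext Ultra II), sequenced as single 75-bp reads and aligned to hg19 with TopHat, and HTSeq is on its software list. The submitters' processing notes name DRAGEN, STAR 2.7.8a, DESeq2 1.32.0 and hg38 instead, so the pipeline behind the table is uncertain. The DDD86481 columns are named PCLX001, a name that the labels tie to DDD86481. Groups came from the labels.

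Genes were filtered with filterByExpr by group (14341 of 28266 rows kept; 6836 rows held no count), scaled by TMM and fitted as counts with edgeR 4.0.16 (glmQLFit and glmQLFTest, R 4.3.3, limma 3.58.1), in 1 fit of 18 libraries over 6 groups. There were 12 residual degrees of freedom and 8.06 prior ones, and the prior count of log2 CPM was 2. Adjusted p-values are Benjamini-Hochberg values over the 14341 genes of each comparison. A count of 0 allows 3 counts, or 0.121 to 0.187 CPM by library, for counting error only. No replicate pair agreed within sampling noise (lowest chi-square per gene 5.09). Lengths came from canonical transcripts of GENCODE on GRCh37, and promoters from RefSeq on GRCh38.p14. The scripts were tested on simulated data.

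The members, gene lists and tests were chosen with earlier results of these data known. Named in every comparison were the catalytic and inducible β genes, PSME, PSMF and PSMG genes, and in each family of PSMA, constitutive PSMB, PSMC and PSMD the called genes with the largest rise and fall. For each interaction, the 4 called genes with the largest difference were named. Other genes were named after their values were seen. Alternatives were DESeq2 1.42.0, other scalings and filters, the groups compared alone, leaving out each library, and the replicate number as a block. Same-numbered libraries deviated together (every r over 0.1) between control IMP1088 and control DMSO (0.394, 0.123 and 0.231), between the inhibitors in senescent cells (0.117, 0.126 and 0.119) and in control cells (0.101, 0.270 and 0.129), and not in the other comparisons. Some genes of the lists are not reported here by name.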

Additional observations from a re-analysis of the deposited data

Results flagged for a closer look

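The effect of an inhibitor on some proteasome genes differed between senescent and control cells by a test of the difference itself (edgeR's quasi-likelihood test of the interaction term, Benjamini-Hochberg adjusted). With IMP1088, 12 of 46 genes were called, all with the higher log2 fold change in senescent cells. Of all genes, 12.1% were called in that direction. The count was 4 of 46 without control DMSO replicate 3 (9.89% of all genes) and 28 without replicate 1 (17.4%). A higher value is not a stronger effect: with all libraries, the median over the 7 α genes was 0.02 in senescent and -0.48 in control cells. The largest differences in log2 fold change were 0.77 ± 0.20 for PSMG3 (adjusted p = 0.00845), 0.65 ± 0.22 for PSMB6 (0.0347), 0.62 ± 0.18 for PSMA5 (0.0153) and 0.60 ± 0.21 for PSMB3 (0.0442). Without control DMSO replicate 3, PSMG3 and PSMA5 kept their calls at 0.54 (adjusted p = 0.0148) and 0.39 (adjusted p = 0.0242), and PSMB6 and PSMB3 lost theirs at 0.35 (adjusted p = 0.0897) and 0.26 (adjusted p = 0.0950).

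With DDD86481, 19 of 46 genes were called, all with the higher log2 fold change in senescent cells. Of all genes, 14.4% were called in that direction. The count was 9 of 46 without control DMSO replicate 3 (11.3% of all genes), 7 with the length trend removed as well (11.2%) and 30 without replicate 1 (19.2%). With all libraries, the median over the 7 α genes was 0.12 in senescent and -0.51 in control cells. The largest differences were 0.99 ± 0.20 for PSMG3 (adjusted p = 0.00140), 0.71 ± 0.21 for PSMB3 (0.0179), 0.69 ± 0.18 for PSMC6 (0.00665) and 0.68 ± 0.19 for PSMA3 (0.0127). Of the catalytic genes, PSMB6 came to 0.62 ± 0.22 (0.0388) and PSMB5 to 0.55 ± 0.19 (0.0330). With control DMSO replicate 3 left out and the trend with transcript length removed, PSMG3 and PSMC6 were called, at 0.57 (adjusted p = 0.00397) and 0.37 (adjusted p = 0.0223), and PSMB3, PSMA3, PSMB6 and PSMB5 were not, at 0.09 (adjusted p = 0.524), 0.17 (adjusted p = 0.279), 0.06 (adjusted p = 0.798) and 0.07 (adjusted p = 0.667).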

How the results depend on the processing

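Of 8004 values of single genes under an alternative, 7272 kept their direction and their side of the threshold, 514 lost and 216 gained a call, and 2 were reversed. Both were PSMD10 in senescence, at -0.00 (adjusted p = 0.98): 0.21 without control DMSO replicate 3 (its range without 1 library was -0.13 to 0.21) and 0.21 without that library and senescent DDD86481 replicate 1, adjusted p = 0.033 and 0.027. A further 494 values called in neither fit changed sign. With only the groups compared, 21 of 46 genes were called with IMP1088 in senescent cells (59.7% of all genes), 8 with IMP1088 (20%) and 6 with DDD86481 (21%) in control cells. With the length trend removed, 19 were called with DDD86481 in control cells (36.8% of all genes) and 7 and 9 in the interactions with IMP1088 and DDD86481 (25.8% and 28.9%), and 9 for DDD86481 with the replicate block as well (30.4%). With that and without control DMSO replicate 3, 12 and 12 were called with IMP1088 and DDD86481 in control cells (30.2% and 29.5%) and 5 and 7 in the interactions (21.5% and 23.3%). Without control DMSO replicate 3 and senescent DDD86481 replicate 1, these counts were 16 with IMP1088 in control cells (31.1%) and 7 and 11 in the interactions (25.3% and 22.9%). In senescent cells 18 and 15 were then called with IMP1088 and DDD86481 (51.9% and 45.3%), against 12 and 12 (44.4% and 43.2%).

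Leaving out 1 library gave 25 to 39 calls in senescence (63.6 to 69.2% of all genes), 9 to 10 with IMP1088 (37.6 to 38.7%) and 7 to 10 with DDD86481 (36.3 to 40%) in senescent cells, 13 to 33 (24.1 to 40.6%) and 17 to 34 (26 to 43.5%) in control cells, and 4 to 29 (18.9 to 36.1%) and 9 to 31 (23.5 to 39.9%) in the interactions. DDD86481 in senescent cells gave 7 calls without senescent DMSO replicate 1 or 2. In control cells IMP1088 gave 13 without control DMSO replicate 3 and 17 without control IMP1088 replicate 1, and DDD86481 17 without control DMSO replicate 3. The IMP1088 interaction gave 29 without control DMSO replicate 1 and between 4 and 6 without control DMSO replicate 3, control IMP1088 replicate 1, senescent DMSO replicate 1 or 2, or any senescent IMP1088 library, and the DDD86481 interaction gave 31 without control DMSO replicate 1, 9 without replicate 3, and 9 and 10 without senescent DMSO replicates 1 and 2. The cause was not tested. The fit with the replicate block gave 30, 12, 12, 28 and 31 calls in the 5 comparisons and 12 and 19 in the interactions, the counts of the fit without it. Of these calls 29 in senescence and 11 in the IMP1088 interaction were shared with that fit. With the block PSMB6 gained a call in senescence (0.34, adjusted p = 0.0221) and PSME1 lost it (-0.29, adjusted p = 0.0503), and in the interaction PSMD12 gained a call (0.32, adjusted p = 0.0496) and PSMC6 lost it (0.49, adjusted p = 0.0556). In the direct comparison of the inhibitors, 0 genes were called under each alternative. PSMB11 and PSMA8 were too low to test.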
